A study of Mus musculus with 15 samples.

Results

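Tight junctions are the belts of membrane proteins that seal the space between neighbouring epithelial cells, and 8 of their genes are described here. They are the claudin genes Cldn1, Cldn3, Cldn4, Cldn7 and Cldn8, together with Ocln, Tjp1 and Cxadr. Every probe set whose only gene symbol in the platform annotation was one of these 8 was taken, which gave 17 of the 20380 probe sets with a single symbol, and 8 of 12393 genes. Cldn1, Cldn3 and Cxadr have 4 probe sets each, and the other 5 genes have 1 each. None of the 17 was listed at 0 on any array, and no filter on dim probe sets was applied, so all 8 genes and all 17 probe sets were tested.

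The arrays were hybridised with RNA of mammary epithelial cells, prepared by digesting glands of female C57BL/6 mice, for which the labels name no mutation or transgene. The mice had been injected into the peritoneum with 5-azacytidine (AzaC), an inhibitor of DNA methylation, with valproic acid (VPA), an inhibitor of histone deacetylases, or with phosphate-buffered saline (PBS) as the control. Doses and dates of injection are not given in the sources used here. Mice labelled pregnant were at day 21, and gave 3 arrays with AzaC, 3 with VPA and 2 with PBS. Mice labelled virgin were 9 weeks old, and gave 3 arrays with AzaC, 2 with VPA and 2 with PBS. Both drugs reach the whole animal, so the gland was not their only target. Whether the replicates of a group are different mice is not stated in the labels, and p-values then cover only array-to-array spread, which may be technical.

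Claudins span the membrane 4 times and pair across the gap between cells, where their type sets how tight the seal is and which ions pass. Occludin, the product of Ocln, is another protein of the same strand. ZO-1, the product of Tjp1, is the scaffold under the membrane that ties claudins and occludin to the actin cytoskeleton. In the mammary gland the junctions between alveolar cells are leaky through most of pregnancy and close around birth, when copious milk secretion begins.

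The arrays themselves set limits on what the stage labels mean. The milk protein genes stood near the top of the scale on all 15 arrays, those labelled virgin included, with Csn2 at 13.69 to 14.03, Wap at 13.41 to 14.18 and Lalba at 14.05 to 14.35. The stage is therefore given below as a label. Markers of epithelium were high on every array, with Epcam at 11.53 to 13.07, Krt8 at 11.10 to 13.36, Krt18 at 11.47 to 13.49 and Cdh1 at 9.67 to 12.14. The 11 genes listed as markers of skeletal muscle averaged 10.1 to 12.9 per array, so the preparations were not purely epithelial. The array medians were 7.22 to 7.47. The difference between the 3′ and 5′ control probe sets of Gapdh, a measure of RNA quality, stood highest on PBS array 2 labelled virgin (1.23), AzaC array 1 labelled pregnant (0.85) and VPA array 3 labelled pregnant (0.82). In bulk RNA, fewer cells of a type and less RNA per cell cannot be told apart.

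Levels are given as deposited, on a scale taken to be log2, so that 1 unit is a 2-fold difference. Changes are differences of group means on that scale with their standard errors (SE), from a linear model fitted with limma to all 15 arrays. A gene is said to have risen or fallen where its p-value, with Benjamini-Hochberg adjustment across the 12393 genes, was under 0.05. One probe set stood for each gene in that fit, the one with the highest mean over all arrays. A second fit tested all 20380 probe sets.

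Among arrays labelled pregnant, Tjp1, Cxadr and 3 of the 4 probe sets of Cldn3 rose with both drugs. Cldn4 was higher on every drug array than on either PBS array, and passed the threshold with VPA. Ocln, Cldn7, Cldn8 and Cldn1 did not pass it with either drug. Both drug comparisons use the same 2 PBS arrays, so they are not independent of each other.

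**Figure D1:**
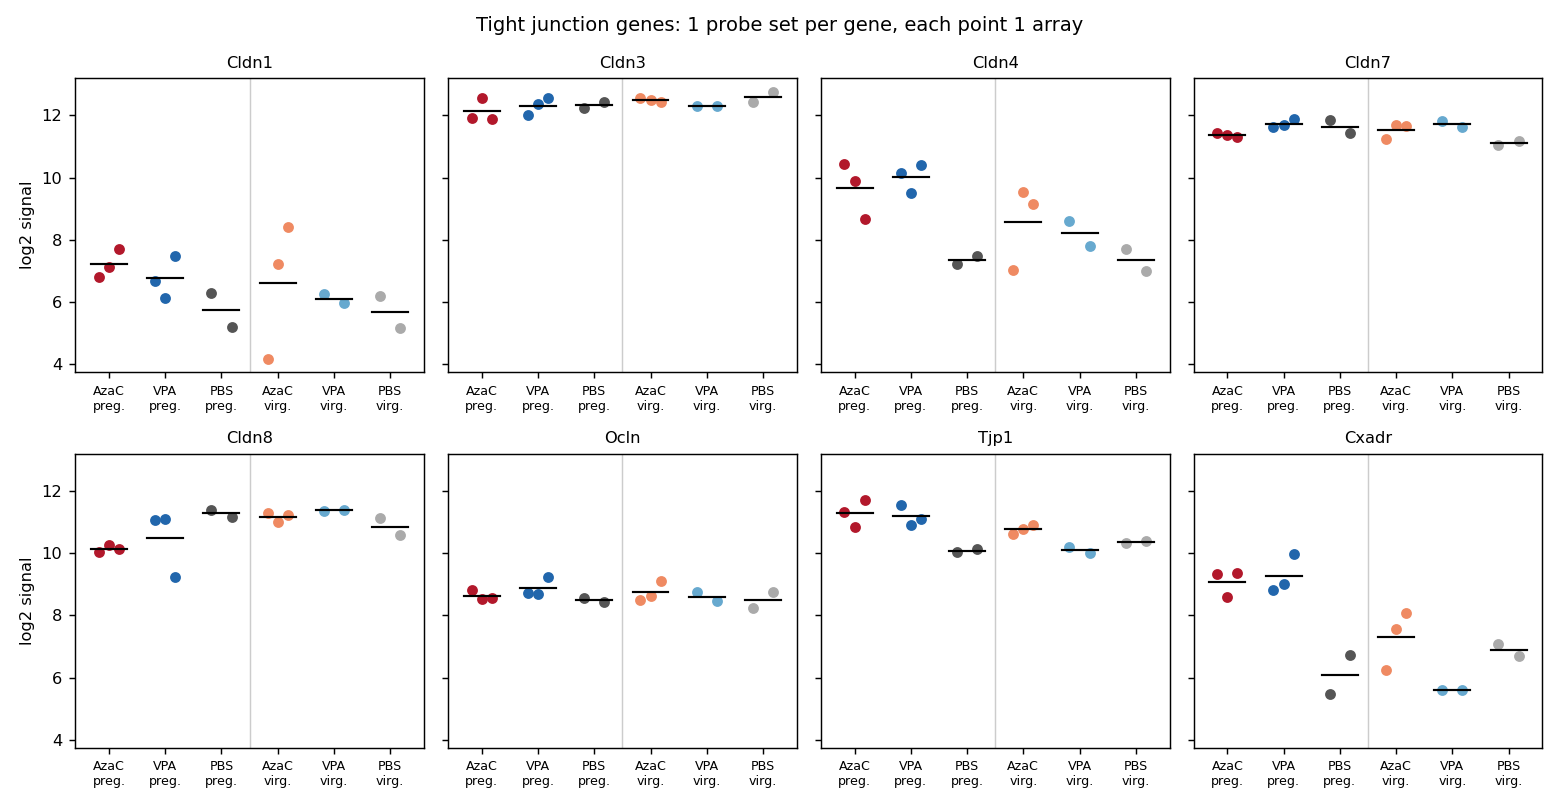
Level of each tight junction gene on each array (log2 signal, vertical axis), for AzaC, VPA and PBS arrays labelled pregnant and then labelled virgin, with 1 probe set per gene, points for arrays and bars for group means. Cxadr, Cldn4 and Tjp1 stood higher on all 6 drug arrays labelled pregnant than on the 2 PBS arrays of that label, whereas Ocln, Cldn7 and the Cldn3 probe set used for the gene moved little.

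With AzaC in arrays labelled pregnant, 2 of the 8 genes rose, against 3.76% of all genes, and none fell, against 3.81% of all genes. The median change of the 8 was 0.67, against 0.04 over all genes. At an unadjusted p under 0.05 (limma) there were 4 of the 8, against 26.2% of all genes. Tjp1 read 11.33, 10.86 and 11.70 with AzaC, against 10.03 and 10.14 with PBS. All 3 AzaC arrays lay above both PBS arrays, and the change was 1.21 ± 0.25 (SE, adjusted p = 0.0196). Cxadr encodes a cell adhesion molecule of the immunoglobulin family that sits at tight junctions and serves coxsackie B viruses and adenoviruses as a receptor. It read 9.32, 8.58 and 9.36 with AzaC, against 5.47 and 6.71 with PBS. The groups lay far apart, and the change was 3.00 ± 0.54 (SE, adjusted p = 0.0135), although the PBS arrays differed from each other by more than 1 unit. Both PBS readings of Cxadr were low on the scale. Those arrays had medians of 7.27 and 7.32 and lower quartiles of 5.15 and 5.17. Both calls were lost when either PBS array, AzaC array 1 or AzaC array 3 was left out, with adjusted p-values up to 0.129 for Tjp1 and 0.119 for Cxadr, while the changes stayed between 1.01 and 1.43 for Tjp1 and between 2.38 and 3.62 for Cxadr. No gene of the whole table passed in a fit of the 5 arrays compared alone.

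Cldn4 encodes a sealing claudin that, with Cldn3, is a receptor for the enterotoxin of Clostridium perfringens. With AzaC it read 10.44, 9.89 and 8.67, against 7.23 and 7.47 with PBS. The AzaC arrays spread widely but none overlapped with PBS. The change of 2.32 ± 0.69 (SE) missed the threshold over all genes (adjusted p = 0.0646). It passed without AzaC array 1 labelled virgin (adjusted p = 0.0173), an array that enters this contrast only through the estimate of the spread. Cldn8 encodes a claudin best known from the distal nephron of the kidney. It read 10.05, 10.25 and 10.15 with AzaC, against 11.40 and 11.16 with PBS. All 3 AzaC arrays lay below both PBS arrays, and the difference was -1.13 ± 0.45 (SE, adjusted p = 0.140). Its adjusted p passed in 1 of the 15 fits with an array left out, at 0.0133.

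The remaining genes showed no change past the threshold with AzaC. Cldn7, whose product is also found along the sides of epithelial cells and binds Epcam, read 11.44, 11.38 and 11.30 with AzaC, against 11.84 and 11.42 with PBS. Ocln read 8.82, 8.52 and 8.56 with AzaC, against 8.55 and 8.44 with PBS. The ranges of these genes touched or overlapped, and the 95% intervals of the differences ran from -0.66 to 0.15 for Cldn7 and from -0.39 to 0.66 for Ocln. Cldn1, the claudin that mice need for the barrier of the skin, read 6.81, 7.11 and 7.71 with AzaC, against 6.27 and 5.20 with PBS on its brightest probe set. The groups did not overlap there, yet the change of 1.48 ± 0.95 (SE) missed the threshold (adjusted p = 0.361). The AzaC arrays labelled virgin, which enter the estimate of the spread, ran from 4.17 to 8.41 on this probe set, and without the lowest of them the adjusted p was 0.0991.

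With VPA in arrays labelled pregnant, 3 of the 8 genes rose, against 3.64% of all genes, and none fell, against 2.34% of all genes. The median change of the 8 was 0.70, against 0.06 over all genes. At an unadjusted p under 0.05 (limma) there were 3 of the 8, against 24.9% of all genes. Cxadr read 8.83, 9.01 and 9.97 with VPA, against 5.47 and 6.71 with PBS. It rose by 3.18 ± 0.54 (SE, adjusted p = 0.0134), with no overlap. Tjp1 read 11.54, 10.90 and 11.11 with VPA, against 10.03 and 10.14 with PBS. It rose by 1.10 ± 0.25 (SE, adjusted p = 0.0306), again with every VPA array above both PBS arrays. Cldn4 read 10.15, 9.50 and 10.39 with VPA, against 7.23 and 7.47 with PBS. It rose by 2.66 ± 0.69 (SE, adjusted p = 0.0472), close to the threshold, and passed in 3 of the 15 fits with an array left out, where its adjusted p was 0.00938 to 0.215.

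The calls with VPA were lost when certain arrays were left out. Without either PBS array labelled pregnant, none of the 8 genes passed, and Cxadr changed by 2.56 to 3.80 over the 15 fits with an array left out, with adjusted p-values up to 0.104. Without VPA array 1 or VPA array 3 labelled pregnant, 1 gene passed. Without the 3 arrays of highest Gapdh difference, 0 of the 8 passed, and Cxadr then changed by 2.83 (adjusted p = 0.0552) and Tjp1 by 1.14 (adjusted p = 0.0846). With the replicate number as a block 1 gene passed, Cxadr.

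The other genes did not pass with VPA. Cldn8 read 11.08, 11.11 and 9.24 with VPA, against 11.40 and 11.16 with PBS, and its difference of -0.80 ± 0.45 (SE, adjusted p = 0.297) came mainly from VPA array 3, without which it was -0.19. Cldn1 read 6.67, 6.13 and 7.47 with VPA, against 6.27 and 5.20 with PBS, which overlap. Cldn7 read 11.64, 11.68 and 11.89 with VPA, against 11.84 and 11.42 with PBS. Ocln read 8.73, 8.70 and 9.22 with VPA, against 8.55 and 8.44 with PBS. For Ocln all VPA arrays lay above both PBS arrays, but the difference was 0.39 ± 0.24 (SE, adjusted p = 0.349).

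Cldn3 was the gene whose probe sets disagreed. Its brightest probe set, 1434651_a_at, read 11.93, 12.57 and 11.88 with AzaC and 12.02, 12.36 and 12.55 with VPA, against 12.24 and 12.42 with PBS, all labelled pregnant. It was flat in both comparisons, with changes of -0.20 ± 0.23 for AzaC and -0.02 ± 0.23 for VPA (SE). The probe set 1451701_x_at read 11.57, 11.80 and 11.34 with AzaC and 11.74, 11.60 and 11.85 with VPA, against 8.82 and 8.61 with PBS. Here the drug arrays stood well above the PBS arrays, and replicates were close to each other. The probe set 1460569_x_at read 11.54, 11.41 and 11.27 with AzaC and 11.46, 11.46 and 12.19 with VPA, against 8.70 and 8.72 with PBS. The dimmest probe set, 1426332_a_at, read 10.04, 10.41 and 10.08 with AzaC and 10.46, 10.13 and 10.18 with VPA, against 7.37 and 7.12 with PBS. These 3 probe sets moved by almost the same amount, 2.70 to 2.93 with AzaC and 2.99 to 3.02 with VPA.

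In the fit of all probe sets, these 3 probe sets of Cldn3 passed with AzaC (adjusted p = 0.0194, 0.0204 and 0.0311 for 1451701_x_at, 1460569_x_at and 1426332_a_at). With VPA they passed too (adjusted p = 0.0181, 0.0168 and 0.0317 for the same probe sets). Averaging all 4 probe sets gave Cldn3 a rise of 2.07 with AzaC (adjusted p = 0.0182) and of 2.25 with VPA (adjusted p = 0.0178), so the call for this gene depends on which probe sets stand for it. Endings in _x and _a mark probe sets that may share sequence with other transcripts or match several transcripts of the gene. What each of the 4 probe sets measures, the flat one and the moving ones, was not tested.

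For Cxadr the 3 brighter probe sets moved and the dimmest did not, whereas for Cldn3 the brightest was the one that did not move. The probe set 1452391_at read 7.89, 7.65 and 8.09 with AzaC and 8.05, 7.77 and 7.87 with VPA, against 5.54 and 6.04 with PBS. The probe set 1449949_a_at read 6.57, 7.11 and 7.18 with AzaC and 7.45, 7.47 and 7.32 with VPA, against 5.32 and 5.41 with PBS. Both followed the brightest one, 1427321_s_at, with changes of 2.09 and 1.59 for AzaC and of 2.11 and 2.05 for VPA. These were smaller than on the brightest one, which changed by 3.00 with AzaC and 3.18 with VPA. The fourth, 1451865_at, lay between 4.68 and 5.93 on all 15 arrays and moved by -0.09 with AzaC and 0.07 with VPA. Cldn1 had no second probe set that followed its brightest one: the other 3 changed by -0.82 to 0.13 with AzaC and by -0.57 to -0.15 with VPA.

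**Figure D2:**
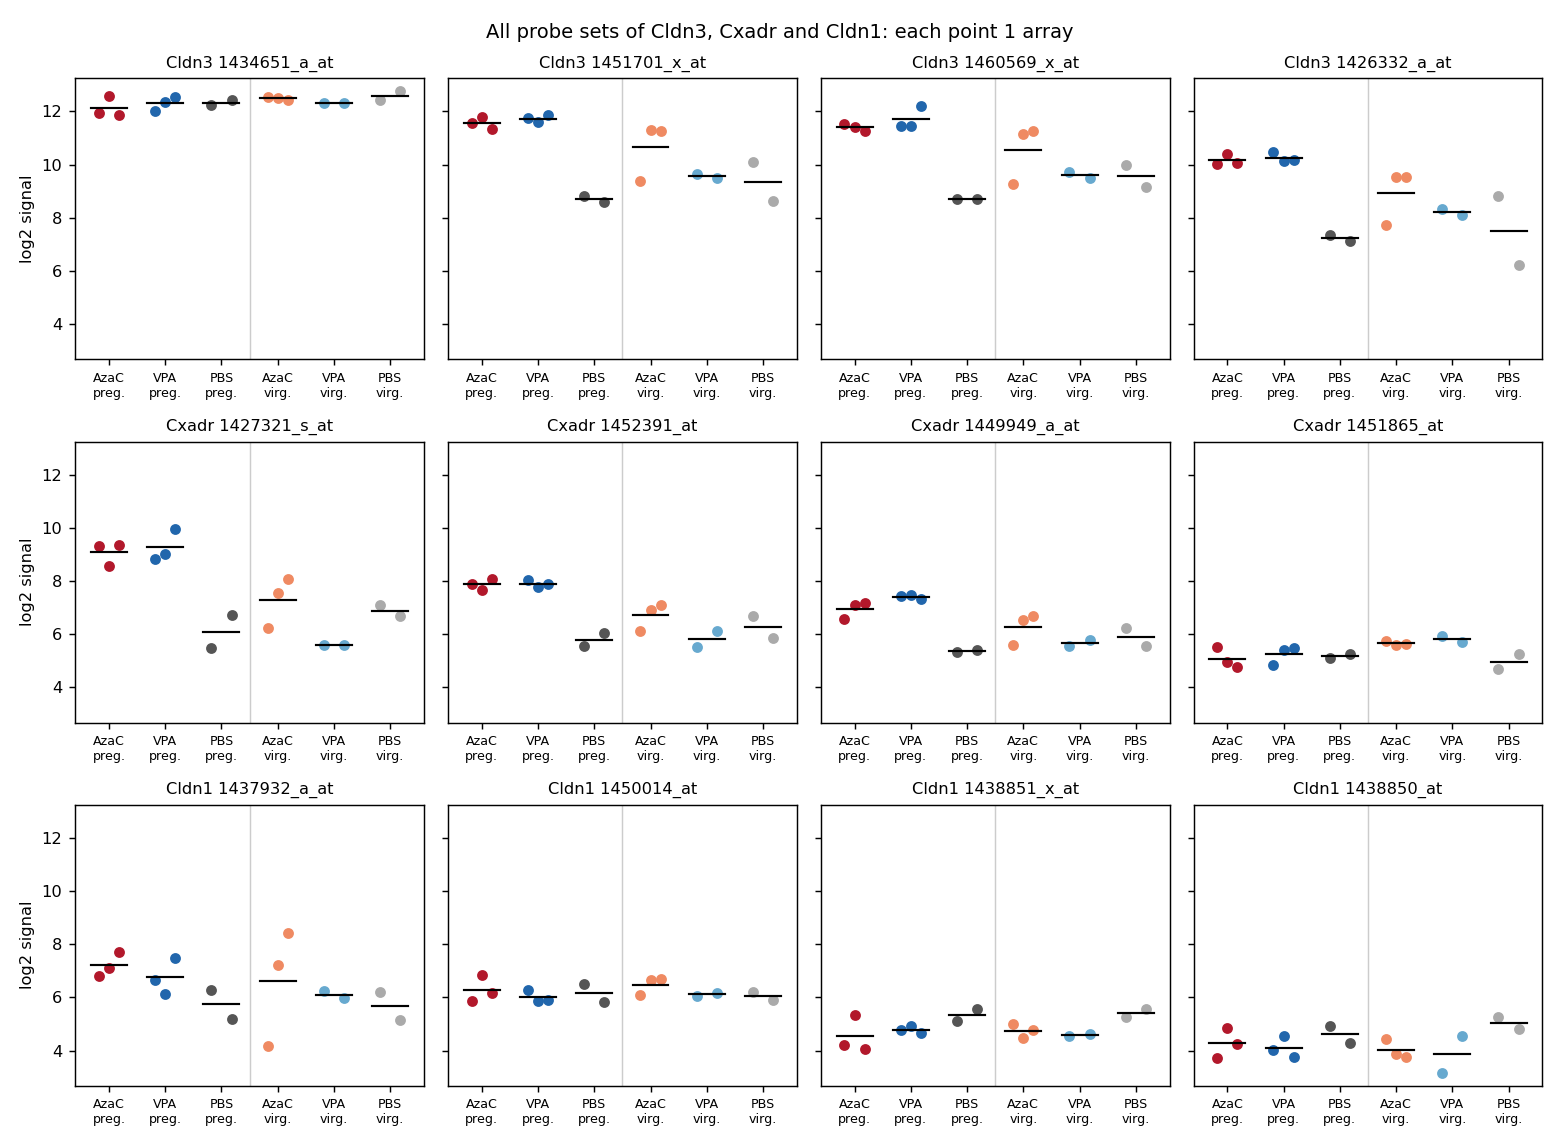
Level of all 4 probe sets of Cldn3 (top row), Cxadr (middle row) and Cldn1 (bottom row) on each array (log2 signal, vertical axis), by drug and stage label, with points for arrays and bars for group means. In arrays labelled pregnant, 3 probe sets of Cldn3 and 3 of Cxadr stood higher with AzaC and VPA than with PBS, while 1434651_a_at of Cldn3 and 1451865_at of Cxadr did not.

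Counted over probe sets, 7 of the 17 rose with AzaC, against 3.1% of all probe sets, and 7 rose with VPA, against 2.6% of all probe sets. For each drug they were 3 of Cldn3, 3 of Cxadr and that of Tjp1, with the PBS arrays shared. None fell with either drug, against 3.18% for AzaC and 1.77% for VPA. Probe sets of 1 gene are not independent, so these 7 stand for 3 genes. The count was 0 to 8 for each drug when arrays were left out in turn, and 0 without either PBS array labelled pregnant. For AzaC it was also 0 without AzaC array 1 or 3 labelled pregnant. For VPA it was 4 without any 1 of the 3 VPA arrays labelled pregnant.

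**Figure D3:**
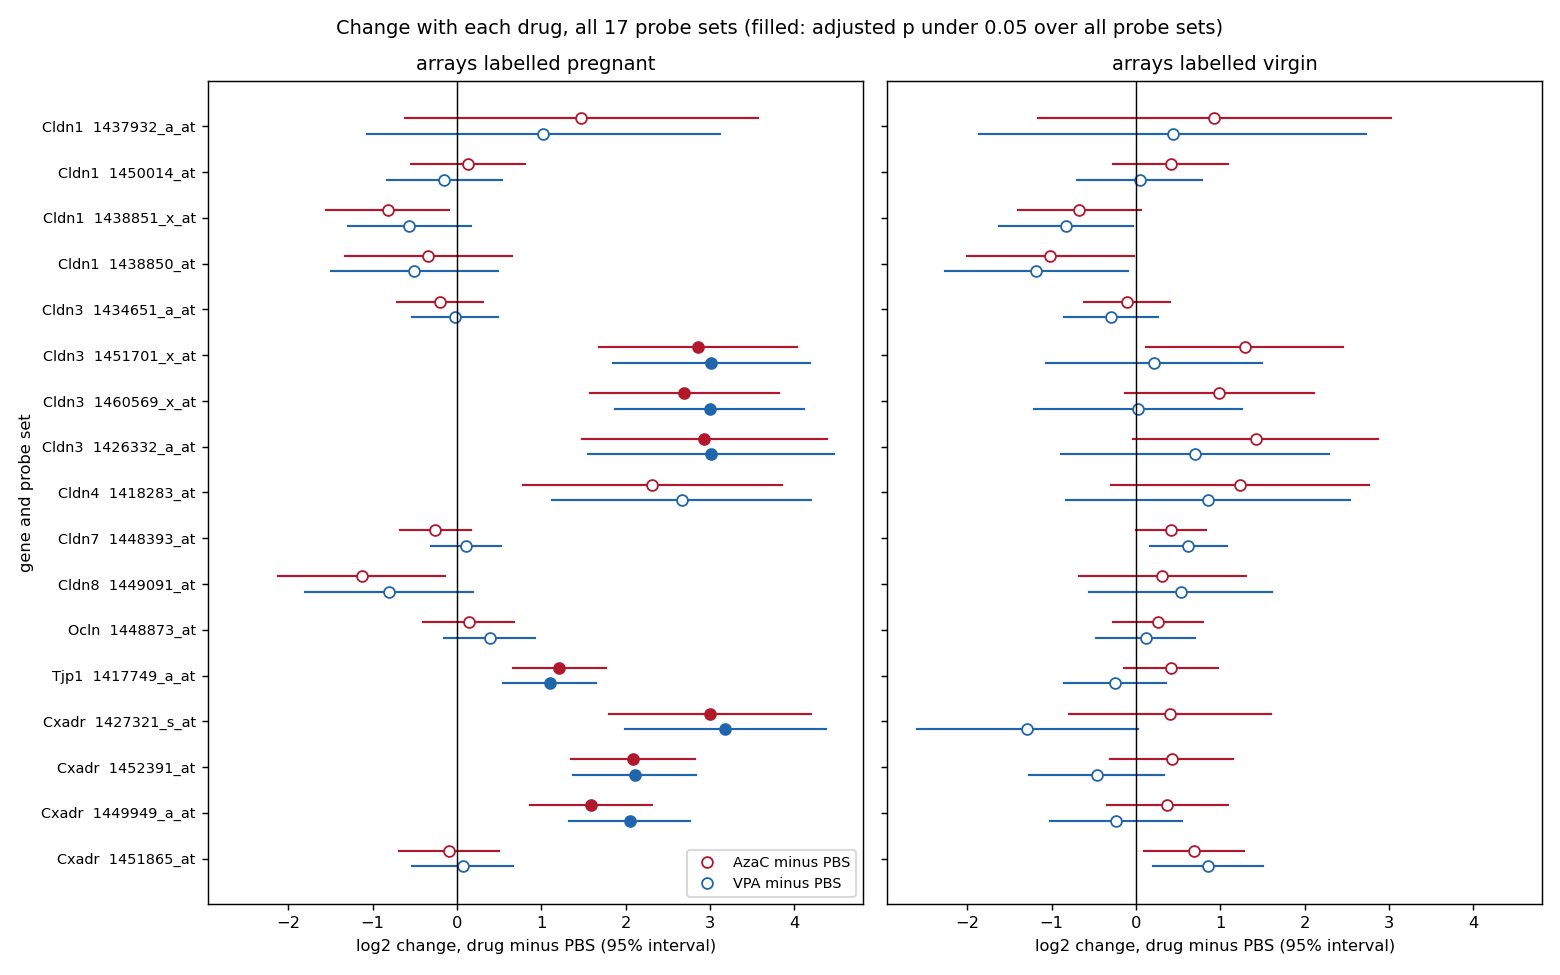
Change of each of the 17 probe sets with AzaC (upper marker of each row) and VPA (lower marker) against PBS, as differences in log2 signal with 95% intervals, for arrays labelled pregnant (left) and virgin (right). Filled markers passed an adjusted p of 0.05 over all probe sets: 7 for each drug on the left and 0 on the right.

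Cldn3 and Cldn4 are neighbours on chromosome 5, with 0 genes listed between them in RefSeq's annotation of GRCm38.p6. The genome build behind the array annotation is not given in the sources used here, so the sequences below are RefSeq's for GRCm38.p6 and were matched by gene symbol. The 250 bases before the annotated start are shown for Cldn3 (chr5:134985964-134986213, + strand), Cldn4 (chr5:134946935-134947184, − strand) and Tjp1 (chr7:65371245-65371494, − strand). These 3 genes each have a probe set that read higher on every drug array labelled pregnant, AzaC or VPA, than on either PBS array of that label. Capitals mark CpG pairs, the sites at which mammalian DNA is methylated. No methylation was measured on these arrays.
Cldn3: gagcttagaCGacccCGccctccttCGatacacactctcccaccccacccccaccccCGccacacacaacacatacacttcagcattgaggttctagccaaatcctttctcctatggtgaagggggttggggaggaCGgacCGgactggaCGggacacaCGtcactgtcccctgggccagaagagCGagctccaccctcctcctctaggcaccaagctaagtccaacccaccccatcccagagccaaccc
Cldn4: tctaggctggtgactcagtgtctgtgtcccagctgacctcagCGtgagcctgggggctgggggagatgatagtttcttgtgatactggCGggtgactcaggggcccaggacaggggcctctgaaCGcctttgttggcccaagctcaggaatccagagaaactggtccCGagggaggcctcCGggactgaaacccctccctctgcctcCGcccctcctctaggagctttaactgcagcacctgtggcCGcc
Tjp1: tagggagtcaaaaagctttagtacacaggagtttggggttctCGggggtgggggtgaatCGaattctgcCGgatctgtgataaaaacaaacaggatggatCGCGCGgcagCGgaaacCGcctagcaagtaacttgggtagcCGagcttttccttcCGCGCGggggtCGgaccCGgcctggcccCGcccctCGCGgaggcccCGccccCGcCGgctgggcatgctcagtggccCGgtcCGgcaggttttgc
The 250 bases hold 9 CpG pairs before Cldn3, 7 before Cldn4 and 22 before Tjp1. In windows of 300 bases that include the first 50 bases of the transcript, Cldn3 has 9, Cldn4 9 and Tjp1 31 CpG pairs, against a median of 7 over 32851 RefSeq promoter windows with quartiles of 3 and 20. Of all windows, 90.5% have no more CpG pairs than Tjp1 and 56.5% no more than Cldn3 or Cldn4. Cldn1 has 15 CpG pairs, the windows of Cldn7 have 7 and 17, and those of Ocln have 24 and 17. Thus 8 windows of 6 genes were at hand, and Cldn8 and Cxadr are named only. Ocln has more CpG pairs than Cldn3 or Cldn4, and fewer than Tjp1. Whether the number of CpG pairs bears on the changes was not tested.

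Motifs were searched on both strands of the 300 bases. The AP-1 motif TGANTCA occurs 2 times before Cldn4 and in no other window of these genes, and 7.81% of all windows hold it. Both matches lie within the bases printed above. The GC box GGGCGG occurs in 7 of the 8 windows and in 35.7% of all windows. These 8 windows are of 6 genes, the 2 of Ocln overlap, and their bases are 52% to 68% G or C. The share over all windows was not matched for that content. The STAT motif TTCNNNGAA occurs once, before Cldn7, against 8.3% of all windows. Neither the grainyhead-like motif AACNNGTT (4.2% of windows) nor the glucocorticoid receptor motif ACANNNTGT (6.85%) occurs in any of the 8 windows. The E-box CANNTG is in 72.3% of all windows. Among these genes it is absent from the window of Tjp1 and the first window of Cldn7, and present in the others. These are matches of letters, and say nothing of binding.

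In arrays labelled virgin, no tight junction gene passed the threshold with either drug. limma called 0 of the 8 with AzaC, where it called 0% of all genes. At an unadjusted p under 0.05 the counts were 1 of the 8 and 849 of all genes (6.85%). With VPA limma called 0 of the 8, where it called 0.00807% of all genes in either direction. At an unadjusted p under 0.05 the counts were 1 of the 8 and 851 of all genes (6.87%). The single gene below that unadjusted level was Cldn7 in both comparisons. Cldn7 read 11.25, 11.68 and 11.66 with AzaC and 11.83 and 11.64 with VPA, against 11.06 and 11.17 with PBS. Its drug arrays all lay above both PBS arrays, by 0.42 ± 0.18 for AzaC and 0.62 ± 0.20 for VPA (SE, adjusted p = 0.714 and 0.592).

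AzaC array 1 labelled virgin stood apart from the other 2 AzaC arrays of that label. Cldn4 read 7.03 there, against 9.55 and 9.16 on the other 2. Cldn1 read 4.17 there, against 7.22 and 8.41 on the other 2. Cxadr read 6.24 there, against 7.56 and 8.07 on the other 2. The 3 moving probe sets of Cldn3 repeated the split, with 9.39, 9.26 and 7.74 there and 9.52 to 11.29 on the other 2. For Tjp1 the 3 arrays lay closer together, at 10.62, 10.77 and 10.91. The array stood apart beyond the tight junction genes. Its score on the first principal component of the genes above the 40th percentile of level was -31.5, against 2.10 and 7.99 on the other 2 AzaC arrays and -10.7 and -31.1 on the PBS arrays of that label. Cdh1, the cadherin of epithelial cells, read 9.67 there, against 10.83 and 11.10 on the other 2, and Fkbp5, a gene induced by glucocorticoids, read 7.56, against 9.37 and 9.43. With the array included, AzaC minus PBS was 1.24 ± 0.69 for Cldn4 and 0.41 ± 0.54 for Cxadr (SE), and without it Cldn4 reached 2.01 (the highest of the 15 fits with an array left out) with the call still missed.

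With VPA labelled virgin, Cxadr read 5.59 and 5.61 on the probe set used for the gene, against 7.09 and 6.68 with PBS. These VPA readings were low on the scale, where the lower quartiles of the 2 arrays were 5.14 and 5.13. Both VPA arrays lay below both PBS arrays, the opposite of the arrays labelled pregnant, by -1.28 ± 0.59 (SE, adjusted p = 0.731). Tjp1 averaged 10.11 ± 0.15 with VPA and 10.35 ± 0.04 with PBS (SD, n = 2 each), and differed by -0.24 ± 0.27 (SE). Cldn4 read 8.60 and 7.80 with VPA, against 7.71 and 6.98 with PBS, and differed by 0.85 ± 0.76 (SE). None of these could be told from the spread between arrays. The other probe sets of Cxadr did not repeat the separation below PBS. VPA and PBS arrays overlapped on 1452391_at (5.53 and 6.11, against 6.70 and 5.87) and on 1449949_a_at (5.54 and 5.79, against 6.25 and 5.55). On 1451865_at the VPA arrays lay above PBS, at 5.93 and 5.72, against 4.68 and 5.26. Cldn8, Ocln and Cldn3, on the probe sets used for the gene, differed from PBS by at most 0.53 with either drug. The 3 moving probe sets of Cldn3 averaged 10.65, 10.56 and 8.93 with AzaC and 9.575, 9.60 and 8.215 with VPA. With PBS labelled virgin they averaged 9.365, 9.575 and 7.515, and none passed the threshold with either drug.

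The difference between the stage labels was tested within each injection. With VPA, Cxadr stood 3.67 ± 0.54 higher in arrays labelled pregnant than in arrays labelled virgin (SE, adjusted p = 0.0148), and Tjp1 1.08 ± 0.25 higher (adjusted p = 0.0318). These 2 of the 8 genes rose, against 3.7% of all genes, and none fell, against 2.96%. Without either VPA array labelled virgin, neither passed. In the fit of all probe sets 6 of the 17 were higher in arrays labelled pregnant, against 2.78% of all probe sets: 3 of Cxadr, 2 of Cldn3 and that of Tjp1.

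With AzaC, 0 of the 8 genes passed between the labels, against 0.121% of all genes higher and 1.11% lower. Of the 8, 3 had an unadjusted p under 0.05, against 2283 of all genes (18.4%). Cxadr was 1.80 ± 0.48 higher in arrays labelled pregnant (SE, adjusted p = 0.0978), Tjp1 0.53 ± 0.22 higher (adjusted p = 0.233) and Cldn8 1.01 lower, a difference of -1.01 ± 0.40 (adjusted p = 0.213). Cldn8 read 10.05 to 10.25 on the AzaC arrays labelled pregnant and 10.99 to 11.28 on those labelled virgin, without overlap. With PBS, 0 of the 8 passed, against 0.00807% of all genes in either direction. Of the 8, 1, Cldn7, had an unadjusted p under 0.05, against 521 of all genes (4.2%). Cldn4 averaged 7.35 ± 0.17 on PBS arrays labelled pregnant and 7.34 ± 0.52 on PBS arrays labelled virgin (SD, n = 2 each). The 95% interval of that difference was -1.66 to 1.67, and for Ocln it was -0.57 to 0.58.

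Whether a drug's change depended on the stage label was tested as the difference between the 2 changes. For VPA that difference was 4.47 ± 0.80 for Cxadr (SE, adjusted p = 0.0491), made of the rise of 3.18 in arrays labelled pregnant and the difference of -1.28 in arrays labelled virgin. It was the only one of the 8 called, against 0.121% of all genes higher and 0.194% lower. The adjusted p lay at the threshold and the call was lost in 13 of the 15 fits with an array left out, where the difference was 3.85 to 5.09 and the adjusted p 0.0167 to 0.188. In the fit of all probe sets 0 of the 17 passed, where limma called 0.132% of all probe sets in either direction. There the 3 moving probe sets of Cxadr had differences of 4.47, 2.57 and 2.28 (adjusted p = 0.0611, 0.0676 and 0.0765). In the gene fit, 2 of the 8 had an unadjusted p under 0.05, against 18.9% of all genes. For Tjp1 the difference was 1.34 ± 0.37 (adjusted p = 0.102).

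For AzaC, 0 of the 8 genes showed a difference between the labels that passed, where limma called 0% of all genes. Of the 8, 4 had an unadjusted p under 0.05, against 1587 of all genes (12.8%). These 4 were Cxadr at 2.59 ± 0.76 (SE, adjusted p = 0.211), Tjp1 at 0.79 ± 0.35, Cldn7 at -0.67 ± 0.26 and Cldn8 at -1.44 ± 0.63. The changes with AzaC in arrays labelled pregnant and virgin are thus not shown to differ for any of the 8 genes.

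The 2 drugs were also set against each other. In arrays labelled pregnant, AzaC and VPA differed past the threshold in 0 of the 8 genes, where limma called 0% of all genes. At an unadjusted p under 0.05 they differed in 1 of the 8 and 468 of all genes (3.78%). The 95% interval of AzaC minus VPA was -1.24 to 0.88 for Cxadr, -0.37 to 0.60 for Tjp1 and -1.71 to 1.02 for Cldn4, so differences of that size remain possible. Cldn7 was the gene with the small unadjusted p, at 11.37 ± 0.07 with AzaC and 11.74 ± 0.13 with VPA (SD, n = 3 each). In arrays labelled virgin, AzaC against VPA gave 0 of the 8, where limma called 0% of all genes. At an unadjusted p under 0.05, against 813 of all genes (6.56%), it gave 2 of the 8. These were Cxadr, 1.69 ± 0.54 higher with AzaC, and Tjp1, 0.66 ± 0.25 higher with AzaC (SE, adjusted p = 0.695 and 0.744).

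Set in order over the 6 groups, Cxadr averaged 9.27 ± 0.61 with VPA and 9.09 ± 0.44 with AzaC labelled pregnant, 7.29 ± 0.94 with AzaC and 6.88 ± 0.29 with PBS labelled virgin, 6.09 ± 0.88 with PBS labelled pregnant and 5.60 ± 0.01 with VPA labelled virgin (SD, n = 2 or 3). The drug arrays labelled pregnant, at 8.58 to 9.97, did not overlap with any other array, at 5.47 to 8.07, while the next neighbours in that order lay within their spread. Tjp1 had a like order, from 11.30 ± 0.42 with AzaC and 11.18 ± 0.33 with VPA labelled pregnant through 10.77 ± 0.15 with AzaC labelled virgin to 10.35 ± 0.04 with PBS labelled virgin, 10.11 ± 0.15 with VPA labelled virgin and 10.09 ± 0.08 with PBS labelled pregnant. The arrays of AzaC labelled virgin overlapped with those of VPA labelled pregnant, and those of VPA labelled virgin with PBS labelled pregnant. Cldn4 averaged 10.01 ± 0.46 with VPA and 9.67 ± 0.91 with AzaC labelled pregnant, 8.58 ± 1.36 with AzaC and 8.20 ± 0.57 with VPA labelled virgin, and 7.35 ± 0.17 and 7.34 ± 0.52 with PBS labelled pregnant and virgin. Its 4 drug groups stood above its 2 PBS groups, but the AzaC arrays labelled virgin spread across the whole gap.

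Among other genes of epithelial junctions, drawn from lists of the pathway, 12 of 115 in 7 lists rose and 1 fell with each drug in arrays labelled pregnant. Over all genes, 3.76% rose and 3.81% fell with AzaC, and 3.64% rose and 2.34% fell with VPA. The counts by list below rest on 8 to 30 genes each, and several lie near these shares. Of 13 other claudins measured, 2 rose with each drug, Cldn23 and Cldn5. Cldn5, the claudin of blood vessel walls, averaged 9.01 ± 0.19 with AzaC and 9.19 ± 0.69 with VPA, against 7.21 ± 0.46 with PBS, and Cldn23 averaged 6.88 ± 0.20 with AzaC and 7.14 ± 0.21 with VPA, against 5.22 ± 0.19 with PBS (SD, n = 3, 3 and 2). The median change of these claudins was 0.02 with AzaC and 0.04 with VPA, close to that of all genes. Of 27 scaffold and polarity genes, 1 rose and 1 fell with AzaC, and 0 rose and 1 fell with VPA. Arhgef18 rose by 0.96 ± 0.23 with AzaC (SE, adjusted p = 0.0301). With VPA it averaged 9.80, against 8.95 with PBS, without passing. Magi3, a scaffold with PDZ domains like Tjp1, fell by 0.63 ± 0.16 with AzaC and 0.73 ± 0.16 with VPA (SE, adjusted p = 0.0404 and 0.0292), the opposite of Tjp1. Of 13 other membrane proteins of the junction, 1 rose with each drug. Marveld2, the tricellulin of corners where 3 cells meet, rose by 1.11 ± 0.29 with AzaC, and Marveld3 by 1.78 ± 0.33 with VPA (SE). Without passing, Marveld2 averaged 8.69 with VPA, against 7.625 with PBS, and Marveld3 8.39 with AzaC, against 7.235 with PBS. Between AzaC and VPA labelled pregnant, 0 of the 115 genes differed past the threshold.

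The other junction types and their regulators were counted in the same way, against the same shares of all genes. Of 12 adherens junction genes, 4 rose with AzaC (Nectin4, Vcl, Ctnna1 and Nectin2) and 3 with VPA (Nectin2, Ctnna1 and Cdh1). The medians over the list were 0.69 and 0.54. Without passing, Cdh1 averaged 11.60 with AzaC, against 10.095 with PBS. Vcl and Nectin4 averaged 10.53 and 8.11 with VPA, against 9.74 and 7.81 with PBS, also without passing. Ctnna1, the catenin that ties cadherins to actin, averaged 11.56 ± 0.33 with AzaC and 11.63 ± 0.08 with VPA, against 10.43 ± 0.15 with PBS (SD, n = 3, 3 and 2). Of 12 desmosome genes, Evpl and Pkp3 rose with each drug, Pkp3 by 1.16 ± 0.30 with AzaC and 1.33 ± 0.30 with VPA (SE, adjusted p = 0.0404 and 0.0320). Of 8 gap junction genes, 0 passed with AzaC. Gja1 and Gjb2 rose with VPA by 1.35 ± 0.32 and 0.86 ± 0.23 (SE). With AzaC they averaged 8.83 and 11.95, against 7.77 and 11.295 with PBS, without passing. Of 30 regulators of epithelial junctions, Klf4, a transcription factor of barrier epithelia, and Fkbp5, a glucocorticoid-induced partner of the glucocorticoid receptor, rose with each drug. None of these 4 lists had a gene that fell past the threshold with either drug. Some genes still read lower on every drug array than on either PBS array. Gjb1 of the gap junction list averaged 7.37 with AzaC and 7.56 with VPA, against 9.455 with PBS. Nr3c1 of the regulators averaged 9.81 with AzaC and 9.65 with VPA, against 10.52 with PBS. In arrays labelled virgin, no gene of these 7 lists passed with either drug.

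**Figure D4:**
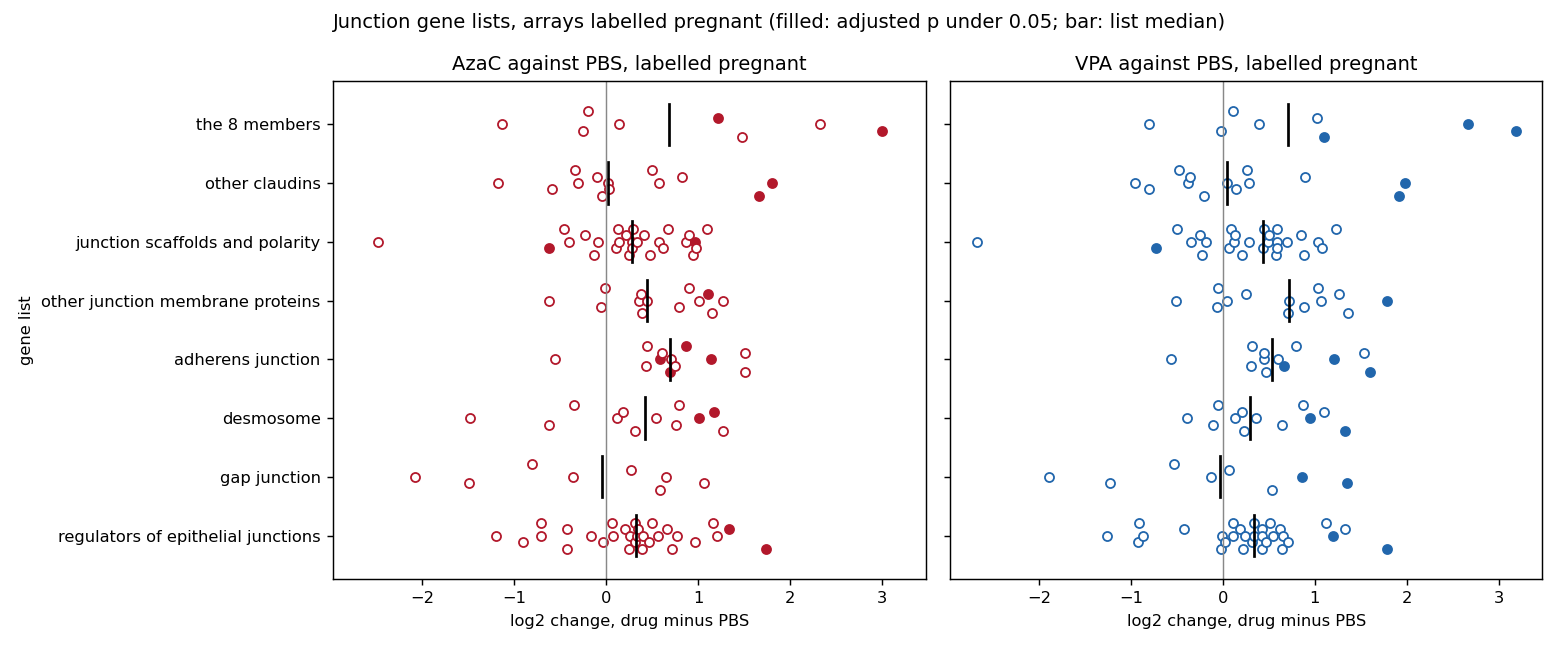
Change of each gene in the 8 tight junction genes and 7 other lists of junction genes (rows) with AzaC (left) and VPA (right) against PBS in arrays labelled pregnant, as differences in log2 signal, with filled points for adjusted p under 0.05 over all genes and bars for list medians. Cxadr at 3.00 and 3.18 lies farthest to the right in both panels, and Magi3 is the one filled point left of 0.

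Markers of several cell types moved with these comparisons. The 15 luminal markers averaged 10.08 to 10.58 per array with AzaC and 10.24 to 10.41 with VPA, against 9.53 to 9.54 with PBS, all labelled pregnant. The 8 markers of luminal progenitors averaged 9.33 to 9.74 with AzaC and 9.15 to 9.44 with VPA, against 7.40 to 7.75 with PBS. That mean does not speak for each marker. Over all 15 arrays Kit (6.74 to 11.79), Aldh1a3 (2.68 to 9.31), Cd14 (9.89 to 14.06) and Cxcl1 (2.13 to 6.91) ranged widely. Itga2 (7.17 to 7.79), Lypd3 (5.05 to 6.00), Tnfrsf11a (9.96 to 10.98) and Sox10 (11.39 to 12.45) spanned less. The 15 endothelial markers averaged 7.96 to 8.75 with AzaC and 7.97 to 8.57 with VPA, against 7.19 to 7.76 with PBS. The ranges of these list averages did not overlap between drug and PBS, and the same held for the macrophage, fibroblast and adipocyte lists. The 11 skeletal muscle markers averaged 12.62 to 12.75 with VPA, against 10.90 to 12.21 with PBS, without overlap, and their median change was the highest of the 11 marker lists with VPA. With AzaC they averaged 11.20 to 12.86 and overlapped with PBS. The basal list averaged 9.43 to 9.84 with VPA, against 9.16 to 9.37 with PBS, without overlap, and the neutrophil list 4.58 to 4.65 with AzaC, against 4.40 to 4.50 with PBS. The marker genes at 0 on any array were Cd3d of the lymphocyte list and Camp of the neutrophil list. Milk secretion genes averaged 13.99 to 14.04 with AzaC and 13.89 to 14.03 with VPA, against 13.93 to 14.02 with PBS, and overlapped. Krt18, a keratin of luminal cells, averaged 13.11 ± 0.38 with AzaC and 13.12 ± 0.28 with VPA, against 11.71 ± 0.11 with PBS (SD, n = 3, 3 and 2). Their part in the changes of the tight junction genes was not tested.

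The genes outside the 8 with the most similar pattern were found by the root mean square difference between the 6 group means, after centring each gene. For Tjp1 these were Ptpn12 at 0.04 and Ptch1 at 0.04. For Cxadr they were Osmr at 0.21 and Slc40a1 at 0.21, and for Cldn4 Fxyd6 at 0.15 and Tyro3 at 0.18, all in log2 units.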

How the data were processed

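The series matrix holds the authors' processed values of 15 single-colour Affymetrix arrays, 1 per sample, deposited with 2 decimals and taken as log2 signals. The values run from 0 to 14.48. The log base and the ways signals were summarised and normalised are not given in the sources used here. They were used as deposited. Probe sets were named from the platform annotation of August 2016: 20380 had 1 symbol, 691 several and 1619 none, and the last 2 kinds were left out. Groups came from the sample titles. Group means were fitted to all arrays with limma 3.58.1 (lmFit and eBayes, R 4.3.3), with 9 residual degrees of freedom, two-sided tests and p-values adjusted over all genes, or over all probe sets in the second fit.

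On simulated data for AzaC in arrays labelled pregnant, the fit over 12393 genes recovered 74, 183 and 195 of 200 genes changed by 1, 2 and 3 log2 units. In the same runs it called 5, 15 and 11 unchanged genes. The changed genes were drawn only from genes with a mean level above 7.04. The recovery therefore does not apply to dimmer genes, among them Cldn1 with a mean of 6.45. Named genes outside the 8 were those past the threshold with the smallest p, up to 4 per list and comparison, together with fixed label checks and the 2 genes of most similar pattern for each of the 8 that passed anywhere. The members and gene lists were chosen with earlier results of these data known. Replicate numbers were not used to pair arrays, since the labels do not say that they pair them. Deviations of same-numbered arrays from their group means correlated at -0.42 to 0.65. That range cannot decide whether arrays are paired, because in a group of 2 arrays the deviations mirror each other. Alternatives were other normalization, filters, probe set rules, arrays and covariates, and leaving out each array. Promoter sequences are RefSeq's for GRCm38.p6. Figures were drawn with matplotlib 3.10.9.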

Additional observations from a re-analysis of the deposited data

Results flagged for a closer look

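The change of Cxadr with VPA differed between the stage labels by 4.47 ± 0.80 (SE, limma, adjusted p = 0.0491). It was singled out because the difference itself passed the test. On 1427321_s_at, the probe set used for the gene, Cxadr was higher than with PBS on all 3 VPA arrays labelled pregnant. There it was lower on both VPA arrays labelled virgin, at 5.59 and 5.61, where the lower quartiles of those arrays were 5.14 and 5.13. On 1452391_at and 1449949_a_at, the VPA and PBS arrays labelled virgin overlapped. The call held in 2 of the 15 fits with an array left out, and no probe set of Cxadr passed in the fit of all probe sets.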

How the results depend on the processing

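Each result was recomputed under 10 alternative settings and without each of the 15 arrays. Taking the mean of all probe sets turned Cldn3 to 2.07 with AzaC and 2.25 with VPA in arrays labelled pregnant, because 3 of its 4 probe sets moved. For AzaC against PBS labelled pregnant, 2 genes passed, 0 in a fit of only the arrays compared and 0 to 3 without single arrays. For VPA against PBS labelled pregnant, 3 passed, 1 with only the arrays compared, 1 with the replicate block, 0 without the 3 arrays of highest Gapdh difference and 0 to 3 without single arrays. Between the stage labels with VPA, 2 passed, 1 under the same 3 settings and 0 to 3 without single arrays. Between the labels with AzaC, 0 passed, 1 (Cxadr) among genes above the 40th percentile of level and 0 to 1 without single arrays. The difference of the VPA changes called 1 gene, 0 with quantile normalization, the mean of all probe sets, every probe set tested, the replicate block, the Gapdh covariate or without the 3 arrays, and 0 to 1 without single arrays. The counts in the other 6 comparisons were 0 throughout these settings.

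In the fit of probe sets, whose alternatives were chosen after seeing the data, AzaC labelled pregnant called 7, 0 with only the arrays compared, 3 with the replicate block and 0 to 8 without single arrays. VPA labelled pregnant called 7, 3 with the block and 0 to 8 without single arrays, and the labels with VPA gave 6, 2 with the block and 0 to 7 without single arrays. Replicate numbers were not shown to pair the arrays, so losses under the block are not read as weaker effects. The cause of the other losses was not tested. Over all genes, 938 passed with AzaC and 741 with VPA labelled pregnant, 0 to 1623 and 20 to 1240 over all settings. With 2 PBS arrays per label, the number of arrays limits the precision of every call.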

Other observations

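Between the stage labels with VPA, 13 of the 115 other junction genes were higher in arrays labelled pregnant and 4 were lower, against 3.7% and 2.96% of all genes. The 13 were Cldn23, Pard6b, Amot, Marveld2, Marveld3, Nectin2, Nectin4, Vcl, Ctnna1, Evpl, Pkp3, Gja1 and Klf4, with changes from 0.59 (Nectin4) to 1.63 (Cldn23), and the 4 were Gjb1, Nr3c1, Magi3 and Igsf5. Gjb1, a connexin of gap junctions, was lower in arrays labelled pregnant, at 7.56 ± 1.11 (SD, n = 3), against 9.98 ± 0.23 in arrays labelled virgin (SD, n = 2), a change of -2.43 ± 0.60 (SE, limma, adjusted p = 0.0385). Gja1, another connexin, was higher by 1.42 ± 0.32 (adjusted p = 0.0314). Pard6b, a polarity protein of the apical complex, was higher by 1.62 ± 0.31 (adjusted p = 0.0200), and Igsf5, an adhesion molecule found at tight junctions, was lower by a change of -0.87 ± 0.21 (adjusted p = 0.0361). Nr3c1, the glucocorticoid receptor, was lower by a change of -1.09 ± 0.25 (adjusted p = 0.0333).

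Gjb6, a further connexin, was lower in arrays labelled pregnant than in arrays labelled virgin with AzaC, at 8.49 ± 0.16, against 9.82 ± 0.38 (SD, n = 3 each), a change of -1.33 ± 0.24 (SE, adjusted p = 0.0325). Magi3 was lower in arrays labelled pregnant both with AzaC (-0.84 ± 0.15) and with VPA (-0.90 ± 0.16).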
